A study of Mus musculus with 10 samples.

Results

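The genes described here encode the proteins of the cytosolic ribosome and of the mitochondrial ribosome, measured in the lungs of mice kept in normoxia or exposed to intermittent hypoxia. They were chosen by symbol, with earlier results of these data known. The cytosolic set holds Rpl and Rps genes with Rplp0, Rplp2 and Rpsa, and the mitochondrial set holds Mrpl and Mrps genes. The Rps6k kinases were left out. A probe set counted only when the array's annotation gave it 1 symbol, and a gene with several probe sets was read from the one whose average over the 10 arrays was highest. This gave 119 genes, 45 cytosolic and 74 mitochondrial, of 12393 genes on the array, with 223 of its 22626 probe sets. A further 29 genes of the same name pattern had only probe sets shared between several symbols, many of them with pseudogenes, and are described apart.

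RNA of the whole lung came from 10 male C57BL/6 mice aged 6 to 8 weeks, 5 in normoxia and 5 in intermittent hypoxia, in which oxygen falls and recovers in cycles. The series' title calls the exposure chronic, and the sources used here do not give its oxygen levels or length. Each animal had its own Affymetrix 430A 2.0 array, and all values below are log2 probe set levels or differences between them, intermittent hypoxia minus normoxia.

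The cytosolic ribosome translates nuclear mRNAs, and its proteins are encoded by some of the most abundant mRNAs of any cell. Many of these mRNAs begin with a run of pyrimidines, the terminal oligopyrimidine tract, through which mTOR signalling controls their translation rather than their amount. The mitochondrial ribosome descends from that of bacteria, carries many added proteins, and makes only the few membrane subunits of oxidative phosphorylation that mitochondrial DNA encodes. All of its proteins are encoded in the nucleus and imported. Because both ribosomes are built from proteins in fixed proportions, their genes often move together, and Myc and growth signals raise the cytosolic set in many tissues.

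The promoters are shown first, with counts of sequence features that some genes of each set carry. RefSeq windows of GRCm38.p6, from 250 bases before to 50 bases after the transcription start, were available for 39 cytosolic and 65 mitochondrial genes and were searched on both strands. The letters CCGGAAG, a core bound by ETS factors such as GABP, were in 20 cytosolic windows (51.3%) and 24 mitochondrial windows (36.9%), against 9.93% of the 27025 gene windows in the table. AAGATGGCG, a YY1-type motif, was in 2 cytosolic (5.13%) and 7 mitochondrial windows (10.8%), against 1.64% of all. CGCATGCGC, an NRF1-type motif, was in 2 (5.13%) and 7 (10.8%), against 1.95% of all. It was shortened by 1 letter after its counts were seen, and with a further G in front it was in 2 (5.13%) and 3 (4.62%), against 1.07% of all. A run of at least 6 C or T within 5 bases before to 10 bases after the start was in 16 cytosolic windows (41%) and 6 mitochondrial windows (9.23%), against 14.8% of all. None of these motifs contains another. A match is a run of letters and no measured binding site. The 5 windows below run from 100 bases before to 10 bases after the start, with CCGGAAG on the printed strand and the pyrimidine run at the start in capitals. Mrpl3, Mrpl27 and Mrps18a are mitochondrial genes that passed the test described below. Rpl27a is the cytosolic gene that passed as lower, on 1 probe set. Its window has both features, with its CCGGAAG match outside the printed bases. Rpl38 is a cytosolic gene that did not pass, with both features among the printed bases. Their positions are chr9:105053168-105053277, chr11:94653691-94653800, chr17:46110904-46111013, chr7:109519095-109519204 and chr11:114668480-114668589, all on the plus strand.
Mrpl3: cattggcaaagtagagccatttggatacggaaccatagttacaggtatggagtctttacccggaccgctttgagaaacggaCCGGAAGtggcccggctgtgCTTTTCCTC
Mrpl27: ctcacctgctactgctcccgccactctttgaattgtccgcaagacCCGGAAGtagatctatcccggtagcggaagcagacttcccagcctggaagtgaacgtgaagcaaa
Mrps18a: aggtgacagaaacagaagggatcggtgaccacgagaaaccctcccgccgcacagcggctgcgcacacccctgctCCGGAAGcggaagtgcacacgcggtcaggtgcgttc
Rpl27a: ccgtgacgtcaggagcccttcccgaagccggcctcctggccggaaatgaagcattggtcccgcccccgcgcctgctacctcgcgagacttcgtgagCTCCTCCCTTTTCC
Rpl38: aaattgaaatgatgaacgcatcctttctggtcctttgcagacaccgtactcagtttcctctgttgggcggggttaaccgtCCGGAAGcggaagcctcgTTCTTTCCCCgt
Among the mitochondrial windows, CCGGAAG was in 5 of 8 windows of genes that passed the test and in 19 of 57 of the others (33.3%), a difference that was not tested.

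The arrays differed in spread, which limits the reading of the values below. Normoxia arrays had a standard deviation over all probe sets of 1.95 ± 0.05, and intermittent hypoxia arrays one of 2.02 ± 0.02 (mean ± SD of 5 arrays each). An exact permutation test over the arrays, two-sided, gave p = 0.0476 for this difference. It was narrowest on normoxia arrays 2, 3 and 4, at 1.93, 1.89 and 1.92, while array medians lay between 7.69 and 7.73. The lung label fitted the marker genes: those of alveolar type 2 cells had mean levels of 13.18 to 13.49 on every array. Of 7 measured B cell markers 5 rose, with mean levels of 7.86 to 8.38 in normoxia and 8.40 to 9.08 in intermittent hypoxia. Of 5 macrophage markers 3 rose, with 8.24 to 8.42 and 8.28 to 9.09. Red cell markers had mean levels of 7.64 to 8.03 in normoxia and 7.22 to 7.49 in intermittent hypoxia, with all 4 differences negative and 1 past the test. Of 6 endothelial markers, at 10.53 to 11.08 and 11.07 to 11.25, all differences were positive and 1 passed. Adipose markers, at 7.03 to 8.67 and 6.30 to 7.53, had 4 of 4 negative differences and none past limma, 1 at an unadjusted p under 0.05 and 1 lower by SAM. The part of these cell types in the ribosomal protein values was not tested, and in whole lung fewer cells of a type and less RNA per cell cannot be told apart. Skeletal muscle markers stood at 10.32 on normoxia array 2 and between 6.34 and 6.90 on the other arrays.

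The comparison asked whether ribosomal protein transcripts differed between exposed and control lungs, and few of them did. In the cytosolic set Rps27l rose and Rpl27a fell, and 43 of 45 genes did not pass limma's test at an adjusted p of 0.05. In the mitochondrial set 9 of 74 genes rose, by 0.25 to 0.42 on the log2 scale, and none fell. Over all 22626 probe sets 11.9% passed, 8.5% higher and 3.43% lower, and over 12393 genes with 1 probe set each 8.93% were higher and 3.6% lower. The cytosolic shares of 2.22% in each direction therefore lay below the background. The mitochondrial share higher was 12.2%. All 9 genes that rose were among the 56 mitochondrial genes with a mean level between 8 and 10, or 16.1% of them, and of the non-member probe sets of that range 13.4% were higher and 3.67% lower, so this share too lay near the background. The absence of a mitochondrial fall was limma's count, with 3 lower genes at an unadjusted p under 0.05, 3 lower by SAM with the median of the permuted calls and 1 lower by SAM with their mean. Over all 22626 probe sets SAM called 4252 higher and 2672 lower with the median, and 2014 higher and 875 lower with the mean.

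**Figure D1:**
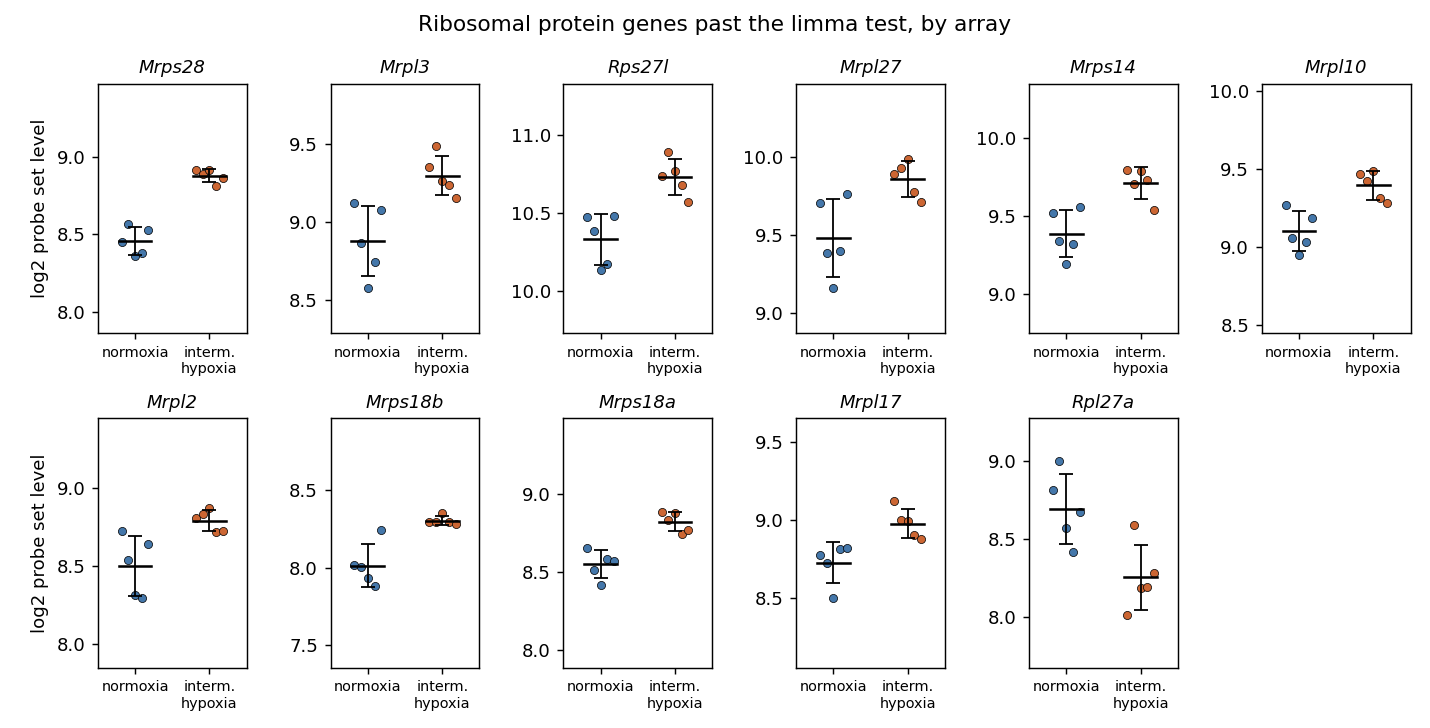
Log2 probe set levels of the 11 ribosomal protein genes past the limma test, 1 panel a gene and 1 point an array, with lines and bars for the group mean and SD (n = 5). Mrps28 shows the widest gap between the groups, 8.36 to 8.57 in normoxia against 8.81 to 8.92 in intermittent hypoxia, and Rpl27a alone is lower.

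Rps27l encodes a close paralog of the small-subunit protein eS27 and is known as a p53-inducible gene. Its level was 10.48, 10.38, 10.14, 10.18 and 10.48 on normoxia arrays 1 to 5 and 10.74, 10.89, 10.77, 10.68 and 10.57 on the intermittent hypoxia arrays. Every exposed lung stood above every control. The difference was 0.40 (SE 0.09, n = 5 a group, limma adjusted p = 0.0153), or 1.32-fold. Both of its other probe sets also passed, at 0.35 each (adjusted p = 0.0166 and 0.0327), and the call held without any single array, with an adjusted p of at most 0.0464. Rps27, the paralog with the standard name, had a difference of 0.01 (adjusted p = 0.921).

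Rpl27a, a large-subunit protein, was the only cytosolic gene that fell. Its levels were 8.81, 9.00, 8.57, 8.42 and 8.67 in normoxia and 8.01, 8.59, 8.19, 8.19 and 8.29 in intermittent hypoxia, and the groups overlapped. The difference was -0.44 (SE 0.12, n = 5 a group, limma adjusted p = 0.0333), or 0.737-fold. The other probe set of its own did not pass, at -0.13. A probe set shared with other symbols, at a higher mean level of 12.93, gave 0.07 (limma adjusted p = 0.584). The call was lost without normoxia array 1, 2 or 3 or intermittent hypoxia array 1, 3 or 4, with an adjusted p of up to 0.0811. The probe set used here, at a mean level of 8.48, therefore does not stand for all measurements of Rpl27a on these arrays.

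Of 24 large-subunit genes of the cytosolic ribosome, none passed as higher and 1 as lower, 20 differences were positive, and their median was 0.09. By limma at an unadjusted p under 0.05 there were 8 such genes, 1 of them lower, and by SAM 6 were higher and 1 lower. Rpl11, a protein of the central protuberance that binds Mdm2 when ribosome assembly is disturbed, was nearest to the threshold. Its levels were 12.22, 11.95, 11.73, 11.86 and 12.37 in normoxia and 12.49, 12.50, 12.48, 12.34 and 12.17 in intermittent hypoxia, a difference of 0.37 with an adjusted p of 0.0545. Rplp0, the base of the stalk that recruits elongation factors, ran from 12.61 to 13.05 with a median of 12.88 in normoxia and from 12.96 to 13.21 with a median of 13.17 in intermittent hypoxia. Its difference of 0.25 did not pass (adjusted p = 0.0754). The stalk protein Rplp2 had a difference of 0.04 (adjusted p = 0.716).

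Of 21 small-subunit genes 1, Rps27l, passed as higher, 19 differences were positive, and their median was 0.11. The largest difference of the whole cytosolic set was that of Rps4l, a copy of the Rps4 gene, and it did not pass. Its levels were 8.40, 7.60, 7.48, 8.42 and 8.24 in normoxia and 8.50, 8.41, 8.84, 8.54 and 8.41 in intermittent hypoxia, with a difference of 0.51 (SE 0.18, adjusted p = 0.0747). Normoxia arrays 2 and 3 were low, and of the controls only array 4 reached the range of the exposed lungs. Rps4x, the X-linked gene for the same position in the ribosome, differed by 0.13 (adjusted p = 0.344). Rps26, at the mRNA exit channel, lay at 12.18 to 12.72 on the normoxia arrays and at 12.62 to 13.07 after exposure, a difference of 0.34 that did not pass (adjusted p = 0.0760).

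The probe sets with the highest levels differed little. Rps29 was at 14.05 ± 0.13 in normoxia and 14.13 ± 0.07 in intermittent hypoxia, Rps28 at 13.84 ± 0.11 and 13.83 ± 0.11, and Rpl41 at 13.81 ± 0.10 and 13.84 ± 0.07 (SD, n = 5 each). The 95% intervals of their differences were -0.07 to 0.24, -0.16 to 0.15 and -0.11 to 0.17. A probe set difference of 0.4 as in Rps27l lay outside all of them. The highest mean level of any probe set was 14.86, and whether signal this high still follows the amount of mRNA was not tested. Rps29, Rps28 and Rpl41 each encode a small protein of the cytosolic ribosome. Over the 32 cytosolic genes at a level of 12 and above, limma called 0 genes, 8 had an unadjusted p under 0.05, SAM called 7 higher with the median and 0 with the mean of the permuted calls. In that group 31 differences were positive (96.9%), with a median of 0.12. Of 430 other probe sets at this level 79.5% were positive, with a median of 0.13, and 14.9% passed as higher and 2.56% as lower.

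The tissue-restricted paralogs were near the bottom of the cytosolic set. Rpl3l, which replaces Rpl3 in striated muscle, had levels of 5.80, 6.80, 6.08, 6.22 and 6.19 in normoxia and 5.92, 6.11, 5.84, 6.32 and 6.31 in intermittent hypoxia. The highest of these, 6.80, was on normoxia array 2, the array with the high skeletal muscle markers. Its difference was -0.12 with all arrays (adjusted p = 0.647) and 0.03 without that array. Rpl39l, a paralog known for its place in male germ cells, was at 5.62 ± 0.10 and 5.58 ± 0.12 (SD, n = 5 each), a difference of -0.05 (adjusted p = 0.703). Rpl37, a large-subunit protein that is no such paralog, also had a negative difference, -0.08 (adjusted p = 0.509). The shared probe sets that include Rpl37 gave 0.08, 0.20 and 0.31 without passing. For Rps25 the difference was -0.03 (adjusted p = 0.83), and a shared probe set that includes it gave 0.23 without passing. The Rpl14 probe set, at 6.23 ± 0.14 and 6.30 ± 0.15, was of low signal like Rpl3l and Rpl39l, though 1 of the 5 shared probe sets that include Rpl14 passed as higher, at 0.36 (adjusted p = 0.0407). At these levels the array gives little signal, and a probe set's level does not rank genes against each other.

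**Figure D2:**
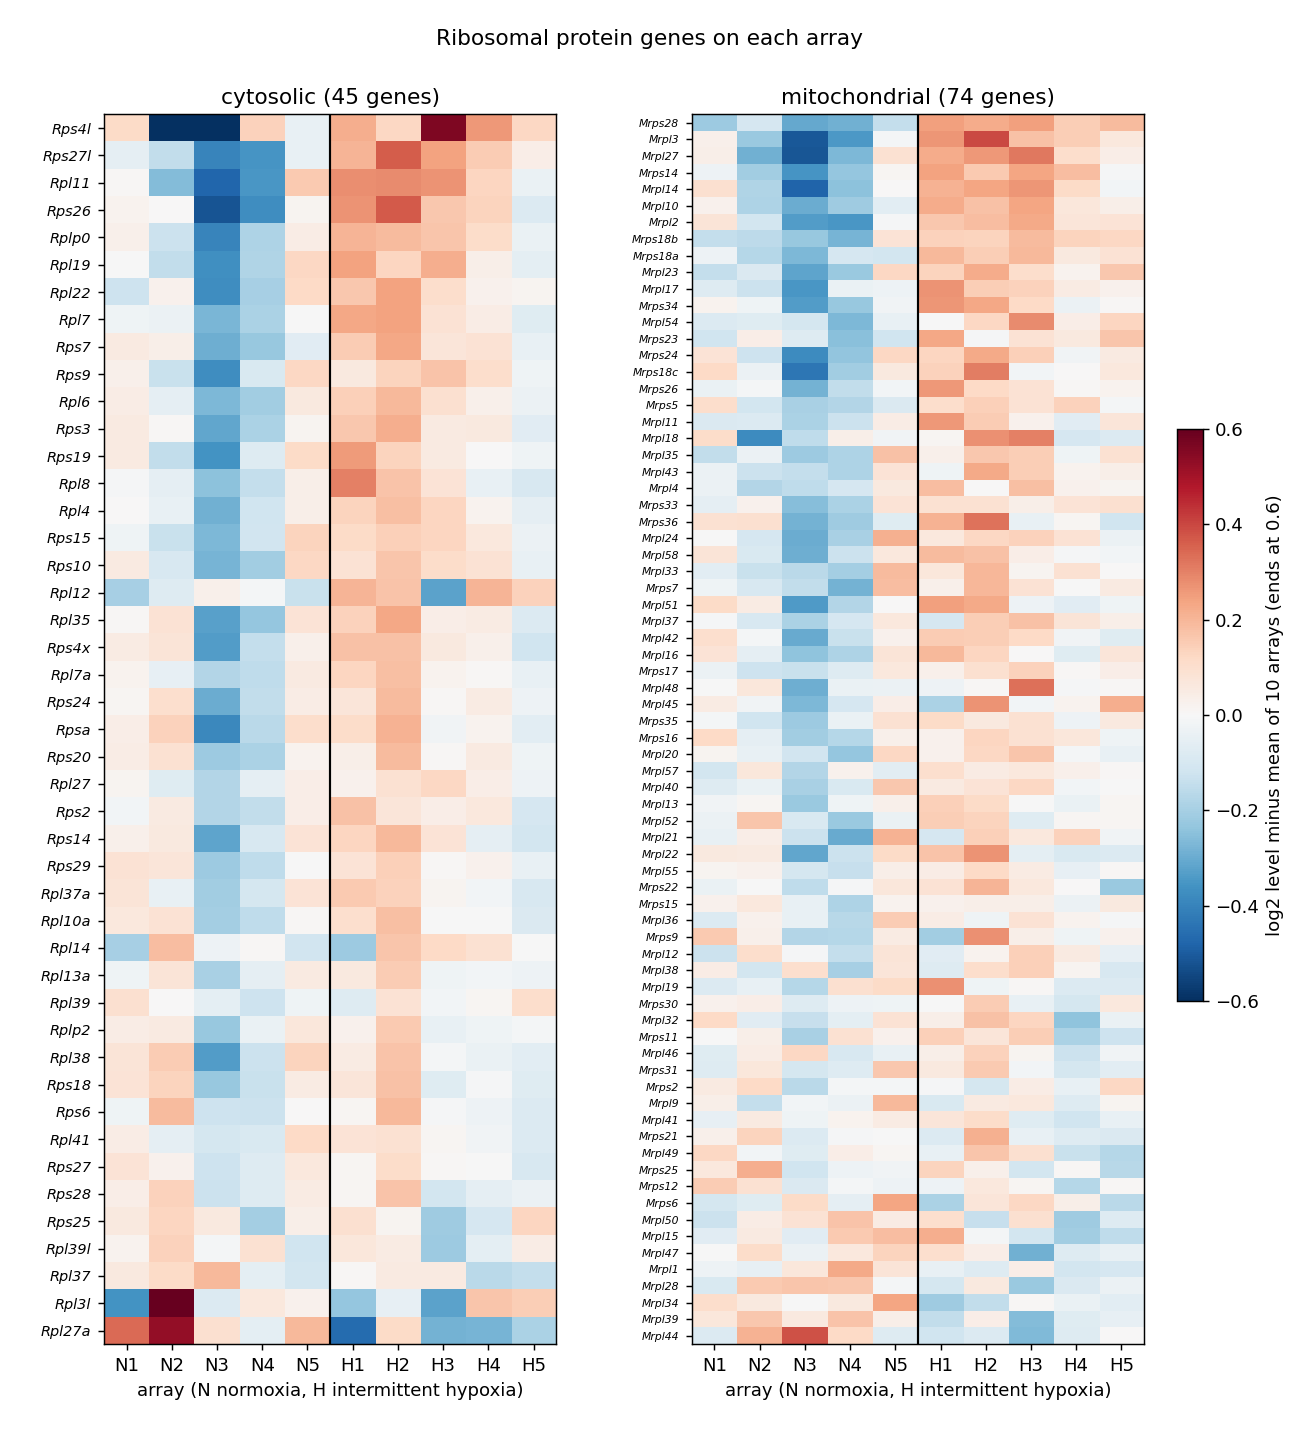
Log2 level of each ribosomal protein gene on each array minus its mean over the 10 arrays, genes in rows ordered by their difference between groups, arrays in columns (N normoxia, H intermittent hypoxia), with the colour scale ending at 0.6 in both directions. Normoxia array 3 is the lowest of the 10 for 36 of 45 cytosolic and 36 of 74 mitochondrial genes.

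The mitochondrial genes that rose came from both subunits. In the small subunit 3 of 24 rose (12.5%), with 20 positive differences and a median of 0.12, and in the large subunit 6 of 49 (12.2%), with 38 positive and a median of 0.10. Mrps36 was counted in neither, since its protein is now regarded as part of 2-oxoglutarate dehydrogenase, and its difference was 0.15 (adjusted p = 0.322). Among the 42 proteins labelled with a bacterial counterpart 7 rose (16.7%), with a median of 0.12. Among the 31 labelled without one 2 rose (6.45%), with a median of 0.10. Those 2 were Mrps18a and Mrps18b, which are themselves homologs of bacterial S18, while the homolog Mrps18c was labelled with a counterpart. The shares therefore do not separate proteins with a bacterial homolog from those without. The difference between these shares was not tested.

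Mrps28, a small-subunit protein related to bacterial S1, had the smallest p of all 119 genes. Its levels were 8.45, 8.57, 8.36, 8.38 and 8.53 in normoxia and 8.92, 8.89, 8.91, 8.81 and 8.86 in intermittent hypoxia. The groups were 0.25 apart at their nearest arrays, and neither group spread wider than that. The difference was 0.42 (SE 0.06, n = 5 a group, limma adjusted p = 0.00409), or 1.34-fold, and it passed without any single array, with an adjusted p of at most 0.0156.

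Mrps14, whose protein lies in the head of the small subunit, was at 9.52, 9.34, 9.20, 9.32 and 9.56 in normoxia and 9.79, 9.71, 9.79, 9.73 and 9.54 in intermittent hypoxia. It rose by 0.32 (SE 0.08, limma adjusted p = 0.0252), with intermittent hypoxia array 5 inside the range of the controls, and its other probe set gave 0.01. Mrps18b, 1 of 3 mammalian homologs of bacterial S18, was at 8.01, 8.00, 7.93, 7.88 and 8.24 against 8.29, 8.29, 8.35, 8.29 and 8.28, with no overlap. It rose by 0.29 (SE 0.07, adjusted p = 0.0227). Mrps18c, another of the 3 homologs, differed by 0.20 and did not pass (adjusted p = 0.208).

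Mrps18a, the third S18 homolog, sits in the large subunit. Its levels were 8.66, 8.52, 8.42, 8.59 and 8.58 in normoxia and 8.88, 8.84, 8.88, 8.75 and 8.78 in intermittent hypoxia. The groups did not overlap, the difference was 0.27 (SE 0.06, limma adjusted p = 0.0184), and the call held without any single array, with an adjusted p of at most 0.0479. Mrpl3, Mrpl2 and Mrpl27 encode homologs of bacterial proteins that lie around the peptidyl transferase centre. Mrpl3 was at 9.12, 8.87, 8.58, 8.75 and 9.08 in normoxia and 9.36, 9.49, 9.26, 9.24 and 9.15 in intermittent hypoxia, without overlap. It rose by 0.42 (SE 0.10, adjusted p = 0.0240), and of its other probe sets 1 passed at 0.44 (adjusted p = 0.0178) while the other gave -0.0031. Mrpl27 rose by 0.38 (SE 0.11, adjusted p = 0.0412), from a normoxia range of 9.16 to 9.76 to a range of 9.71 to 9.99, with an overlap. Mrpl2 rose by 0.29 (SE 0.09, adjusted p = 0.0480), from 8.30 to 8.73 in normoxia to 8.72 to 8.88, where the highest control lay just above the lowest exposed lung.

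Mrpl10, at the base of the mitochondrial stalk, was at 9.27, 9.06, 8.95, 9.04 and 9.19 in normoxia and 9.47, 9.43, 9.49, 9.32 and 9.29 in intermittent hypoxia, without overlap. It rose by 0.30 (SE 0.07, limma adjusted p = 0.0257). Its stalk partner Mrpl12 differed by 0.04 (adjusted p = 0.724). Mrpl17, a homolog of bacterial L17 near the peptide exit, was at 8.77, 8.72, 8.50, 8.81 and 8.82 against 9.12, 9.00, 8.99, 8.90 and 8.88, without overlap, and rose by 0.25 (SE 0.08, adjusted p = 0.0484). Its other probe set gave -0.25 and did not pass, so the gene's direction depends on the probe set.

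The mitochondrial probe sets of highest level were those of Mrpl39, Mrps17 and Mrpl44, and none of these passed. Mrps17 was at 10.12 ± 0.08 on the normoxia arrays and at 10.24 ± 0.05 after exposure (mean ± SD of 5 arrays each), a difference of 0.12 (limma adjusted p = 0.182). The lowest were Mrpl54, described next, Mrpl18, with a difference of 0.16 (adjusted p = 0.318), and Mrps25, with -0.04 (adjusted p = 0.744).

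In all, 8 mitochondrial genes (10.8%) and 1 cytosolic gene (2.22%) had every exposed lung above every control. That pattern was found in 5.47% of all probe sets, in 8.52% of non-member probe sets at a level of 8 to 10 and in 7.67% of those at 12 and above. The opposite pattern, every exposed lung below every control, was found in 2.72% of all probe sets and in none of the 119 genes. The mitochondrial genes apart were 6 that passed together with Mrpl54 (0.23, limma adjusted p = 0.0502) and Mrps26 (0.20, adjusted p = 0.0904). Just outside the threshold stood also Mrpl23, Mrpl14 and Mrps23, at adjusted p values of 0.0549, 0.0550 and 0.0617. No gene of the set passed as lower. Mrpl44, Mrpl39 and Mrpl34 had the lowest differences, -0.22, -0.20 and -0.18, with adjusted p values of 0.125, 0.0710 and 0.0868. Mrpl28 and Mrpl1 followed, at -0.15 and -0.12 (adjusted p = 0.175 and 0.249). Mrpl39 lay at 10.92 to 11.06 on the normoxia arrays and at 10.63 to 10.93 after exposure, and after quantile normalization it and Mrpl34 passed as lower, at -0.36 (adjusted p = 0.0253) and -0.22 (adjusted p = 0.0312).

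**Figure D3:**
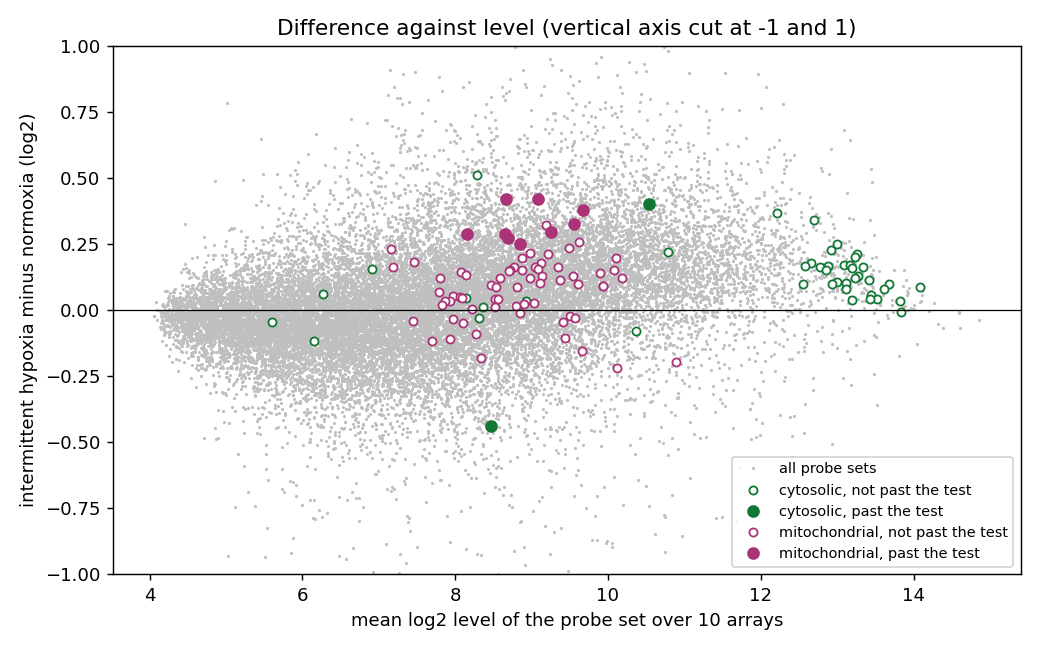
Difference between groups (intermittent hypoxia minus normoxia, log2, cut at -1 and 1) against the mean log2 level over 10 arrays, for all 22626 probe sets in grey and the ribosomal protein genes in colour, filled where they passed the test. The 9 mitochondrial genes that rose lie at levels between 8 and 10, and most cytosolic genes lie at 12 and above just over the zero line.

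Both sets as a whole stood slightly above zero. The median difference was 0.11 for the cytosolic set, with 39 of 45 positive (86.7%), and 0.12 for the mitochondrial set, with 59 of 74 positive (79.7%), against 0.01 and 53.3% over all probe sets. The cytosolic differences ran from -0.44 to 0.51 and the mitochondrial ones from -0.22 to 0.42, while the median SD within a group was 0.13 and 0.12. Probe sets that are no members also stood above zero at these levels. Their median difference was 0.08 at levels of 8 to 10, with 66.2% positive, 0.16 at 10 to 12, with 81.3% positive and 19.9% past the test as higher, and 0.13 at 12 and above, with the shares given above. The 56 mitochondrial genes at levels of 8 to 10 had a median of 0.13, with 83.9% positive, and this difference from the other probe sets was not tested.

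Array by array, the cytosolic genes at 12 and above largely followed the other probe sets of their level. Cytosolic genes at 12 and above had median deviations from the 10-array mean of 0.04, 0.00, -0.28, -0.15 and 0.05 on normoxia arrays 1 to 5, and other probe sets of that level had 0.06, -0.04, -0.23, -0.19 and 0.05. On the intermittent hypoxia arrays the values were 0.13, 0.17, 0.05, 0.03 and -0.05 for the cytosolic genes and 0.08, 0.19, 0.06, 0.04 and -0.04 for the others. The mitochondrial genes were also lowest on normoxia arrays 3 and 4, at -0.17 and -0.13, where the other probe sets at levels of 8 to 10 had -0.11 and -0.08. Normoxia array 2, whose spread was also narrow, did not share these low values, at 0.00 for the cytosolic genes at 12 and above and -0.03 for the mitochondrial genes. The other probe sets had -0.04 at 12 and above and -0.07 at levels of 8 to 10 on that array, so both sets stood above them there. The mitochondrial medians took in all 74 genes, of which 56 lay at levels of 8 to 10. On normoxia arrays 1 and 5 they were -0.01 and 0.05, against 0.01 and 0.03 for other probe sets of that range. On the intermittent hypoxia arrays they were 0.08, 0.13, 0.09, -0.01 and 0.005, against 0.03, 0.08, 0.06, 0.02 and 0.008.

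**Figure D4:**
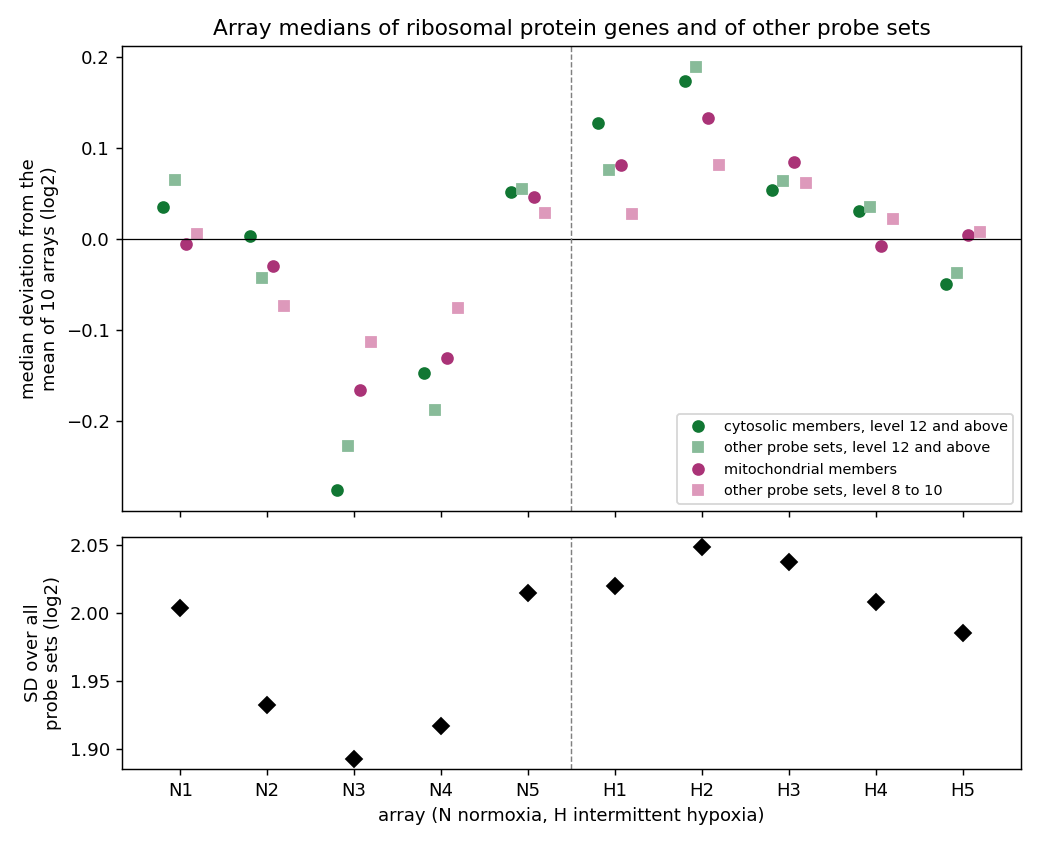
Upper panel, median deviation from the mean of 10 arrays (log2) on each array. It shows cytosolic genes at a level of 12 and above, all 74 mitochondrial genes, and other probe sets at 12 and above and at 8 to 10. Lower panel, standard deviation over all probe sets of each array (log2). Normoxia array 3 has both the lowest medians, down to -0.28, and the narrowest spread, 1.89.

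After quantile normalization, which gives all arrays the same spread, the median differences were 0.03 in both sets, with 28 of 45 cytosolic and 48 of 74 mitochondrial differences positive. Rps27l (0.24, limma adjusted p = 0.0178), Mrps28 (0.37, adjusted p = 0.00389), Mrps18a, Mrps18b, Mrpl3, Mrps14 and Mrpl10 still passed as higher, Mrpl54 passed in addition (0.26, adjusted p = 0.0372), and Rpl27a (-0.49, adjusted p = 0.0263) still passed as lower. Mrpl27, Mrpl2 and Mrpl17 no longer passed, with adjusted p values of 0.0645, 0.0712 and 0.0866. When the 3 narrow normoxia arrays were left out together, which was decided with the values in view and leaves 2 controls, the medians were 0.02 and 0.01 and limma called 0 members, with 2 cytosolic and 4 mitochondrial genes at an unadjusted p under 0.05, while the calls over all probe sets went from 2699 to 16. Mrps28 then still had a difference of 0.39 (adjusted p = 0.113), Rps27l of 0.25 (adjusted p = 0.371), Mrpl27 of 0.12 (adjusted p = 0.723) and Mrpl2 of 0.11 (adjusted p = 0.717).

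**Figure D5:**
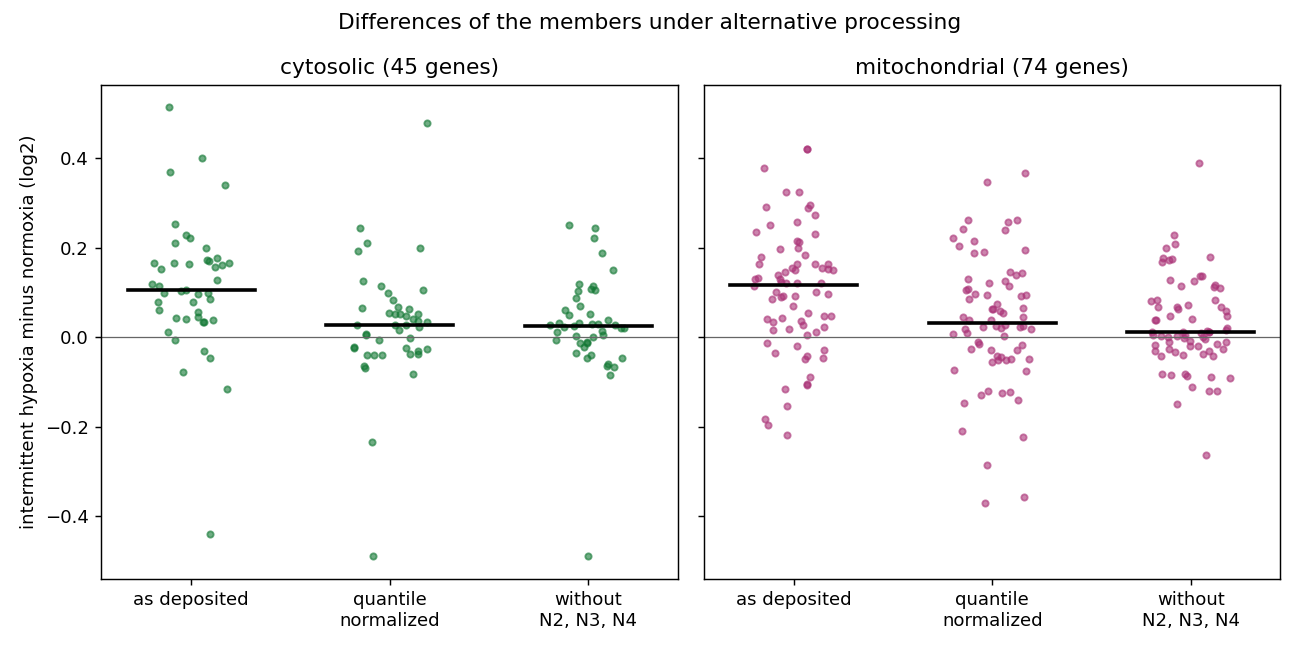
Differences of the 45 cytosolic and 74 mitochondrial genes (intermittent hypoxia minus normoxia, log2) with the values as deposited, after quantile normalization and without normoxia arrays 2, 3 and 4, 1 point a gene with the median as a line. The cytosolic median goes from 0.11 to 0.03 and 0.02 and the mitochondrial median from 0.12 to 0.03 and 0.01.

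The number of calls also turned on single arrays. The mitochondrial count of 9 was 2 without normoxia array 2, 3 or 4 or intermittent hypoxia array 1, 3 without intermittent hypoxia array 2 or 3, 5 without intermittent hypoxia array 4 and 15 without normoxia array 5. The cytosolic count of 2 was 1 without normoxia array 2 or 3 or intermittent hypoxia array 1 or 4, 4 without normoxia array 1 or intermittent hypoxia array 5, and 8 without normoxia array 5. Only Rps27l, Mrps28 and Mrps18a of the 11 called genes passed in all 10 of these fits. Mrps18b, Mrpl3, Mrpl10, Mrps14, Mrpl27, Mrpl2 and Mrpl17 each lost the call without normoxia array 2, 3 or 4 and without at least 1 other array, with adjusted p values of up to 0.0642, 0.0673, 0.0687, 0.0675, 0.101, 0.121 and 0.110.

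The remaining probe sets of the member genes gave a mixed picture. Of 51 further cytosolic probe sets, from 22 genes, the 2 that passed were those of Rps27l, and their median difference was 0.13. Of 53 further mitochondrial probe sets, from 33 genes, 2 were higher and 2 lower, and their median was 0.01. Those higher were from Mrpl3 and Mrps23 (0.33, limma adjusted p = 0.0374), those lower from Mrpl15 (-0.44, adjusted p = 0.0177) and Mrpl42 (-0.47, adjusted p = 0.0429), whose probe sets with the highest level gave -0.10 and 0.13 and did not pass. In all, 37 of the 104 further probe sets had the opposite sign to the one used for their gene.

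Probe sets shared between several symbols numbered 105 and named 44 ribosomal protein genes. Their median difference was 0.10 and 93 were positive, but 3 passed as higher and 1 as lower. Over all probe sets 8.5% were higher and 3.43% lower, and of other probe sets at a level of 12 and above 79.5% were positive. Those higher named Rps7 (0.46, limma adjusted p = 0.0283), Rps13 (0.43, adjusted p = 0.0141) and Rpl14, and that lower named Rpl37a (-0.38, adjusted p = 0.0300). The probe sets with their symbol alone gave 0.20 for Rps7 and 0.08 for Rpl37a, which did not pass, and the other 3 shared probe sets of Rps13 ran from -0.13 to 0.26 without passing. Since such probes may bind the transcripts of pseudogenes, these values cannot be given to 1 gene.

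Genes that serve the ribosome were read in the same fit from lists. Of 62 measured genes of rRNA transcription and ribosome biogenesis 5 rose (8.06%) and none fell by limma, with a median difference of 0.10. SAM called 19 of them higher and 2 lower, where it called 4252 of all 22626 probe sets higher and 2672 lower. The limma share lay below the 8.93% of genes with 1 probe set each that were higher and the 13.4% at levels of 8 to 10, where the list's median level of 8.17 lies. Imp3, a U3 snoRNP protein of early small-subunit processing, rose by 0.47 (adjusted p = 0.0142). Nhp2, of the pseudouridylating snoRNPs, rose by 0.28 (adjusted p = 0.0157), Ddx21, a nucleolar helicase, by 0.34 (adjusted p = 0.0306), and Fbl, the rRNA methyltransferase fibrillarin, by 0.31 (adjusted p = 0.0308). Ribosomal proteins whose symbols follow another pattern, 7 measured of 14, had no gene past limma, 2 at an unadjusted p under 0.05 and 2 higher by SAM. Of these Gadd45gip1 and Chchd1, both of the mitochondrial ribosome, each differed by 0.26 (adjusted p = 0.0761 and 0.115).

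Among 41 cytosolic translation factors 7 rose (17.1%) and none fell by limma, with 37 positive differences and a median of 0.16, and SAM called 18 higher and 1 lower. The list's median level was 10.48, and of non-member probe sets at 10 to 12 a larger share, 19.9%, was higher, with 81.3% positive and the same median. Eif4g3, a scaffold of the cap-binding complex, rose by 0.33 (adjusted p = 0.0199), Eef1e1 by 0.23 (adjusted p = 0.0390), and the initiation factors Eif1a and Eif3a by 0.30 each (adjusted p = 0.0415 and 0.0419). A list of 16 mRNAs with a terminal oligopyrimidine tract, outside the member genes, shares many genes with these factors. Of the 16, 1 rose (6.25%), with 14 positive differences (87.5%) and a median of 0.11. It was Eif3f (0.37, adjusted p = 0.0439), also counted among the 7 factors. The list's median level was 11.59, within the same range of 10 to 12. Of 21 genes of mitochondrial translation and mitoribosome assembly 1 rose (4.76%), with a median of 0.03, below the 8.93% of genes with 1 probe set each that were higher. The gene that rose was Nsun4, which methylates mitochondrial rRNA and takes part in joining the subunits. It stood at 7.81 to 8.14 in normoxia and 8.25 to 8.46 in intermittent hypoxia and rose by 0.41 (adjusted p = 0.00995). Tufm, the mitochondrial elongation factor Tu, differed by -0.24 and did not pass (adjusted p = 0.0995).

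Among 36 regulators of ribosomal protein synthesis 2 rose (5.56%) and 3 fell (8.33%), with a median of 0.01. Over genes with 1 probe set each 8.93% were higher and 3.6% lower, and the difference from these shares was not tested. Ddit4, which restrains mTOR complex 1 and is induced by hypoxia and glucocorticoids in many cells, fell by 1.31 (adjusted p = 0.00144), from 9.56 to 10.30 in normoxia to 8.19 to 8.85. Tsc2, which inhibits the same pathway, rose by 0.37 (adjusted p = 0.0222). Mycl, a Myc family factor, differed by -0.36 (adjusted p = 0.0222) and Ppargc1b, a coactivator of mitochondrial genes, by -0.36 (adjusted p = 0.0407). The fifth gene past the test was Rheb, the mTOR activator that Tsc2 restrains, at 0.31 (adjusted p = 0.0407), which is named beyond the 4 of the naming rule after its values were seen.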

How the data were processed

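The authors deposited log2 probe set values of 22626 probe sets on 10 Affymetrix 430A 2.0 arrays, made with RMA and the affy software per the submitters' processing notes, which give no versions or settings. No probe set was filtered out. Groups of 5 arrays, 1 animal each, were set against each other by limma's moderated test (limma 3.58.1, R 4.3.3), two-sided. P-values were adjusted by Benjamini-Hochberg across the 22626 probe sets and called at 0.05. Probe sets were named from GEO's platform annotation, which gave 1 symbol for 20380, several for 691 and none for 1555. All 119 member genes matched the RefSeq gene table. Genes chosen for the text were those past the test, the 5 largest differences in each direction, the 3 highest and 3 lowest levels of each set, and the paralogs. Context lists gave at most 4 genes past the test, or the 2 with the smallest p, except that Rheb was added to the regulators. Members, lists and subunit roles were chosen with earlier results of these data known.

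SAM with 100 permutations, named in the series' design text, a replicate block, quantile normalization, median centring, a filter on the median level, limma's trend with robust variances, arrayWeights, a threshold of 0.10, averaging a gene's probe sets and leaving out each array were tried as other settings. Leaving out normoxia arrays 2 to 4 and SAM with the mean of the permuted calls were added after the data were seen. Deviations of arrays with the same replicate number correlated between -0.24 and 0.22, so the numbers were not taken as pairs. The tests were run on simulated data first. No scan date or other batch was used here, and 5 arrays a group limit the precision.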

Additional observations from a re-analysis of the deposited data

Results flagged for a closer look

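In 3 of the 74 groups of 5 arrays looked at, 1 array stood far from the other 4. Chance gives about 1 in 20 such groups. Normoxia array 4 was low for Rps25, a cytosolic small-subunit protein, at 8.11 with the next array at 8.35, and for Mrpl54, a mitochondrial large-subunit protein, at 6.89 with the next at 7.05. Intermittent hypoxia array 3 was high for Mrps18b, at 8.35 with the next at 8.29.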

How the results depend on the processing

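The counts of genes past the test moved with the processing. For the cytosolic set, 2 as reported, the count was 4 with a filter on the median level (of 41 genes left) and with arrayWeights, 11 with SAM, 7 at a threshold of 0.10, 0 without normoxia arrays 2 to 4 and between 1 and 8 when 1 array was left out. For the mitochondrial set, 9 as reported, it was 14 with arrayWeights, 24 with SAM, 18 at a threshold of 0.10, 0 without normoxia arrays 2 to 4 and between 2 and 15 when 1 array was left out. SAM with the mean of the permuted calls gave 2 and 13. Over all probe sets, 2699 as reported, it was 4132 with arrayWeights, 6924 with SAM, 4954 at a threshold of 0.10, 16 without normoxia arrays 2 to 4 and between 1003 and 4800 when 1 array was left out. The replicate block, whose numbers do not pair the animals, gave 3 mitochondrial, 2 cytosolic and 1755 calls in all, and 5 of the 11 named genes past the test, against 0 without normoxia arrays 2 to 4 and between 3 and 11 when 1 array was left out. The share of all calls that were higher was 71.2%, and 59.1% after quantile normalization. The mitochondrial median difference of 0.117 was 0.0319 after quantile normalization, 0.0107 without normoxia arrays 2 to 4 and 0.0709 to 0.1477 when 1 array was left out. The cytosolic median of 0.1051 was 0.0614 to 0.1399 when 1 array was left out.

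Signs changed for the called gene Mrpl17, to -6e-04 with the mean of all probe sets, and for genes that had not passed: Rpl39l (0.0044) and Mrps17 (-0.0271) after quantile normalization, Rpl41 after it (-0.0013), with the mean of its probe sets (-0.0116) and without normoxia arrays 2 to 4 (-0.0651), Rps28 (0.0166) with the mean of its probe sets, and Rpl39l (0.0275) and Rpl3l (0.1075) without normoxia arrays 2 to 4. When 1 array was left out, Rpl3l ran from -0.2193 to 0.0297, Rpl39l from -0.0817 to 0.0029, Rps25 from -0.0846 to 0.02, Rps28 from -0.0499 to 0.027 and Mrps25 from -0.0812 to 0.0071. The causes were not tested. Levels near 6, as for Rpl3l and Rpl39l, limit what these probe sets can show.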
